A study of Mus musculus with 2 samples.

Results

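Expression of 38 genes that drive or restrain the cell cycle was read from RNA of 2 mouse cell lines, BaF/3 (#BEB1) and parental Ba/F3. The genes encode cyclins, cyclin-dependent kinases (CDKs), CDK inhibitors, the Rb family, the E2F family, and the Cdc25 phosphatases with Wee1. They were picked by name among the 31709 gene names on the arrays, and took up 52 of 39429 probes and 70 of 43020 non-control spots. Ba/F3 is a mouse pro-B line that depends on interleukin-3 for growth. BaF/3 (#BEB1) is a single clone obtained from Ba/F3 cells that had been infected with a retroviral cDNA library of CG4 oligodendrocyte precursor cells and repeatedly sorted for binding to Ecrg4, a secreted protein. Effects of the clone, of the library insert and of the sorting therefore cannot be told apart. RNA of each line was read on 1 Agilent whole mouse genome array with the dye cyanine 3, so there was no replicate of either line, no test was possible and no p-value is given.

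The deposited data gave the arrays to the lines in opposite ways. Array A is listed as BaF/3 (#BEB1) in the authors' table of normalised values and as parental Ba/F3 in the scanner output, and array B is listed the other way round. Over the 39429 probes, the table column for BaF/3 (#BEB1) correlated with array A at r = 0.999996 and with array B at r = 0.982286. Which assignment is right was not settled. Every difference is on the log2 scale with array B subtracted from array A, and a gene said to be at a value has that difference unless a level or a signal is named. It compares BaF/3 (#BEB1) with the parental line if the table is right, and the parental line with BaF/3 (#BEB1) if the scanner output is. Olr1, the gene for the scavenger receptor LOX-1, had a level of 3.11 on array A and −1.90 on array B, a difference of 5.01.

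A level is the log2 of the spot signal divided by its array's 75th percentile, 1506 for array A and 1080 for array B, so an equal level means a larger raw signal on array A. The scanner software marked 19480 probes (49.4%) as well above background on array A, against 19659 (49.9%) on array B, and marked 0 spots as saturated. A gene was called measured where both arrays had a signal well above background at 1 or more of its probes. Among 211 probes printed at 10 spots and well above background at all of them, the SD between spots had a median of 0.06 on array A and 0.05 on array B, which puts the spread of a difference at 0.08. This covers the array only and not the spread between cultures. Of the pro-B markers, Cd79b and Vpreb1 were measured, both brighter on array B (differences of −2.30 and −1.39), and Cd79a, Pax5, Ebf1, Rag1, Dntt and Il7r were well above background on neither array. All 3 interleukin-3 receptor genes were measured, with Il3ra at 0.40, Csf2rb at −1.86 and Csf2rb2 at −1.60.

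The cell cycle runs on CDKs that are active only when bound to a cyclin. In G1, D-type cyclins with Cdk4 or Cdk6, and then E-type cyclins with Cdk2, phosphorylate the Rb proteins, which releases E2F factors to transcribe the genes of DNA replication. INK4 inhibitors block Cdk4 and Cdk6, CIP/KIP inhibitors bind cyclin-CDK complexes more widely, and Wee1 and the Cdc25 phosphatases set and remove the inhibitory phosphates on CDKs.

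Of the 38 genes, 35 were measured, and Cdkn2a stood far from the rest. The set was chosen with this known, so the place of Cdkn2a in it and among all genes is a description. Cdkn2a was 8.23-fold brighter on array A, while the other 34 measured genes lay between −1.45 and 1.19. Higher by 2-fold or more on array A were Cdkn2a and E2f5, 2 genes or 5.71%, against 3.85% of all 14815 measured genes. Higher by 2-fold or more on array B were E2f2, Cdkn2d, Cdk6 and Ccng2, 4 genes or 11.4%, against 7.3% of all measured genes. Either way this is 17.1% of the cell cycle genes and 11.2% of all measured genes, and these counts are sizes on a pair of arrays. The other 29 were within 2-fold, and 18 of the 35 were within 1.5-fold. In RNA from whole cultures, fewer cells in a phase of the cycle and less RNA of a gene per cell cannot be told apart.

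**Figure D1:**
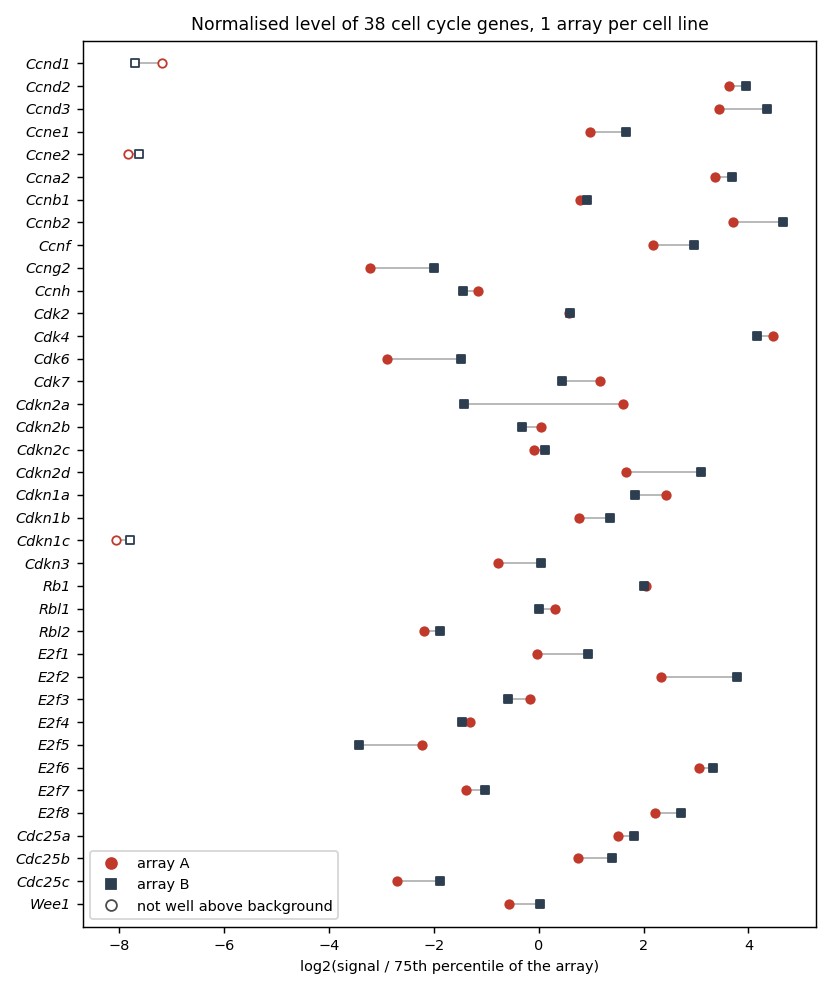
Level of each of the 38 genes on array A (red circles) and array B (blue squares), scaled to the 75th percentile of each array and on a log2 axis; open symbols were not well above background. Cdkn2a has the longest line, 1.61 on array A and −1.43 on array B, while Ccnd1, Ccne2 and Cdkn1c lie at the dim end on both arrays.

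The set as a whole leaned to array B. Its median difference was −0.31 (quartiles −0.81 and 0.23), against −0.02 over all measured genes, and 24 of 35 genes (68.6%) were below 0, against 51.3% of all measured genes. Without Cdkn2a the median was −0.32, and 14.7% of the remaining 34 genes were past 2-fold, against 11.2% of all measured genes. The distance from 0 was also wider than usual, with a median absolute difference of 0.58 against 0.37 for all genes. Scaling the arrays to their medians moved every gene up by 0.29 and the set's median to −0.02, and then the median of all genes was 0.27. With that scaling 20 of the 35 genes were below 0. Relative to all genes the set was lower by 0.30 with the 3 scalings that divide each array by a constant. Such scalings shift both medians alike, so they could not change this value. The set was lower by 0.41 after quantile scaling and by 0.24 with normexp background correction. The signs of Ccnb1, Cdk2, Cdkn2c, Rb1 and E2f6 turned with the scaling and are not read as a direction.

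**Figure D2:**
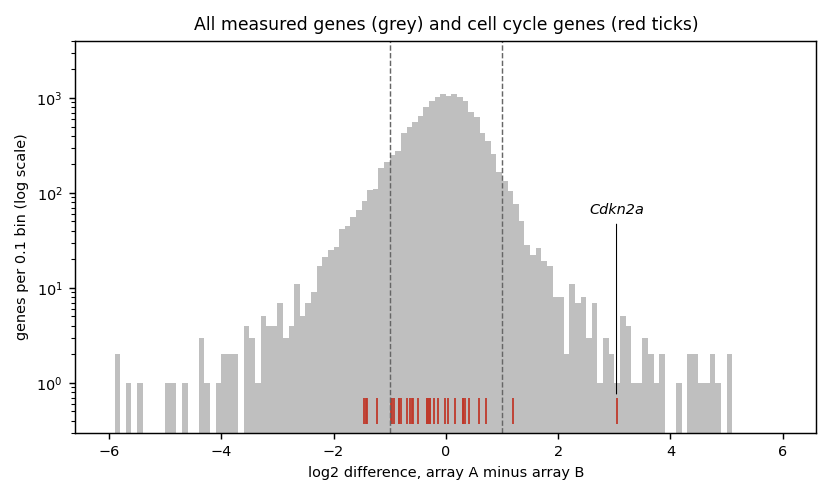
Number of measured genes in each bin of 0.1 of the log2 difference, array A minus array B, on a log scale (grey), with the 35 measured cell cycle genes as red ticks and the 2-fold limits dashed. Cdkn2a, at 3.04, is apart from the other ticks, which end at 1.19.

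The INK4 inhibitors were the most divided family, with Cdkn2a higher on array A and Cdkn2d higher on array B, each by more than 2-fold. Cdkn2a encodes p16Ink4a, which blocks Cdk4 and Cdk6, and, in another reading frame, Arf, which binds Mdm2 and so protects p53. The locus is often deleted or silenced in established mouse cell lines. Cdkn2a was read by 2 probes made for the same transcript record (NM_009877), on the minus strand of chromosome 4 in mm9 and separated by 78 bases. The probe at chr4:88920405-88920464 had a signal of 15051 on array A and 1520 on array B, a difference of 2.83 (7.11-fold). The probe at chr4:88920543-88920602 had 1413 on array A and 106 on array B, a difference of 3.25 (9.53-fold). Both probes were well above background on both arrays, so the transcript was detected in both lines. The first 30 bases of each probe are given to show what was read:
Cdkn2a, chr4:88920405-88920464: ggcatgagaaactgagcgaaggcggccgcg
Cdkn2a, chr4:88920543-88920602: cttctagcgatgctagcgtgtctagcatgt
Whether these bases lie in exons shared by the p16Ink4a and Arf transcripts was not tested, so the difference is that of the gene and not of either product. The mean of the probes, 3.04, was the 32nd highest of 14815 genes, and 71 genes had a difference at least as large in either direction. Over 12 other processing settings it lay between 2.70 and 3.33.

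The other INK4 genes differed from Cdkn2a. Cdkn2d, which encodes p19Ink4d, had a signal of 4765 on array A and 9230 on array B, a difference of −1.43 (2.70-fold brighter on array B). Read by 1 probe at 1 spot, it lay between −1.52 and −1.14 over the scaling and background settings, which could move it. Cdkn2b, which encodes p15Ink4b next to Cdkn2a, had 3706 and 644 at its probes on array A and 1892 and 399 on array B, a mean difference of 0.35. Cdkn2c, which encodes p18Ink4c, was at −0.21. The 4 inhibitors of the same kinases thus ran from 8.23-fold brighter on array A (Cdkn2a) to 2.70-fold brighter on array B (Cdkn2d). The probe of Cdkn2d lies on chromosome 9 and begins as follows:
Cdkn2d, chr9:21092934-21092993: gataacatgagttcatttttctttcttgga

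**Figure D3:**
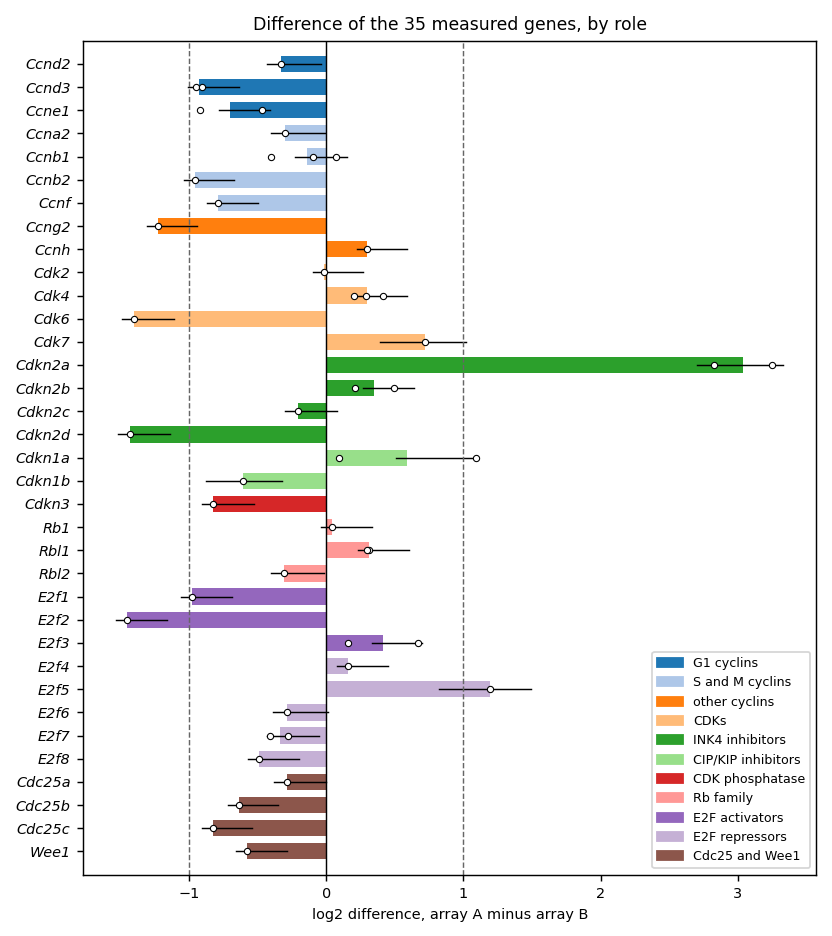
Log2 difference (array A minus array B) for the 35 measured genes in the order of their roles (bars), with each probe as an open circle and the range over 12 processing settings as a line; dashed lines mark 2-fold. Bars past them are Cdkn2a (3.04) and E2f5 (1.19) on one side and E2f2, Cdkn2d, Cdk6 and Ccng2 on the other, and the probes of Cdkn1a lie 1.0 apart.

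Among the CIP/KIP inhibitors, the probes of Cdkn1a disagreed. Cdkn1a encodes p21, a CDK inhibitor that p53 induces. Its probe printed at 10 spots read 48836 to 53749 on array A and 16684 to 18415 on array B, a difference of 1.09 (2.13-fold) with an SD between spots of 0.04 on each array. These raw ranges did not overlap, but neither did those of Rb1, whose scaled difference was 0.04. Spots of 1 array are not replicates of a line. The other probe, made for another transcript record (NM_001111099), had 1279 on array A and 865 on array B, a difference of 0.09, and the mean of 0.59 is therefore a poor summary of either. The probes begin with different bases, at different places on chromosome 17:
Cdkn1a, chr17:29237377-29237436: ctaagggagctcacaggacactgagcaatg
Cdkn1a, chr17:29227986-29228045: aatggagacagagaccccagataattaagg
With the brightest probe of each gene in place of the mean, Cdkn1a joined Cdkn2a and E2f5 past 2-fold on array A. Cdkn1b, which encodes p27, had 2543 on array A and 2783 on array B at the probe measured on both, a difference of −0.61, and a dim second probe was well above background on array B only. Cdkn1c, which encodes p57, was well above background on neither array. Cdkn3, a phosphatase that acts on CDKs, was at −0.83.

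No D-type or E-type cyclin reached 2-fold. Ccnd3 had 24830 and 10641 at its probes on array A and 33483 and 14754 on array B, differences of −0.91 and −0.95. Ccnd2 was at −0.33 and Ccne1 at −0.70, from probes at −0.47 and −0.92. Ccnd1 and Ccne2 were well above background on neither array, so Ccnd2, Ccnd3 and Ccne1 were the G1 cyclins detected. All 3 were brighter on array B, and Ccnd3 passed 2-fold (−1.01) when the arrays were scaled on probes bright on both.

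The cyclins of S phase and mitosis were also within 2-fold. Ccnb2, a mitotic cyclin, had 19558 on array A and 27327 on array B, a difference of −0.96, and of −1.04 with the same other scaling. Ccna2, which acts in S phase and on entry into mitosis, was at −0.30, and Ccnf, the substrate-binding subunit of an SCF ubiquitin ligase, was at −0.79. Ccnb1, the other mitotic B-type cyclin, had 3 probes at −0.40, −0.10 and 0.07, with a mean of −0.14. Unlike these, Ccng2, a cyclin whose transcript is known to be high in cells that stop dividing, was past 2-fold, with 162 on array A and 272 on array B (−1.23, 2.34-fold brighter on array B). It was −0.94 with median scaling. Ccnh, the cyclin of the CDK-activating kinase, was at 0.30.

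Of the kinases, Cdk6 alone was past 2-fold, with 202 on array A and 384 on array B, a difference of −1.40 (2.64-fold brighter on array B). Read by 1 probe at 1 spot, it was −1.49 to −1.11 over the scaling and background settings, which could move it. The related G1 kinase Cdk4 was brighter on array A at each of 3 probes, by 0.20 to 0.41, with a mean of 0.30. The kinases that the INK4 proteins block thus lay on opposite sides of 0. Cdk2, the partner of cyclins E and A, had 2254 on array A and 1640 on array B, which is −0.02 after scaling. Cdk7, the catalytic subunit of the CDK-activating kinase, was at 0.72 from 1 of 2 probes, and at 1.02 with median scaling.

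The Rb family lay near 0. Rb1 was printed at 10 spots that read 5626 to 6540 on array A and 4093 to 4462 on array B, a difference of 0.04 once scaled. Rbl1, which encodes p107, was at 0.30 and 0.31 by its probes, and Rbl2, which encodes p130, was at −0.31.

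The activator E2Fs E2f1 and E2f2 were brighter on array B, and E2f3 was not. E2f2 had 7595 on array A and 14897 on array B, a difference of −1.45 (2.73-fold brighter on array B), the lowest of all 35 genes. Read by 1 probe at 1 spot, E2f2 lay between −1.53 and −1.16 over the scaling and background settings. Settings that choose among probes or spots could not move it. E2f1 had 1476 on array A and 2086 on array B. At −0.98 (1.97-fold) it was the gene just inside the 2-fold limit, followed by Ccnb2 and by Ccnd3 at −0.93. It too passed the limit, at −1.06, with scaling on probes bright on both arrays. E2f3 was at 0.16 and 0.67 by its probes, with a mean of 0.41.

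Among the E2Fs that mainly repress, E2f5, which works with p130 and p107, had 322 on array A and 101 on array B, a difference of 1.19 (2.29-fold). It was 0.82 with normexp background correction. Its counterpart E2f4 was at 0.16, E2f6, which represses without binding Rb proteins, at −0.29, and the atypical E2f7 and E2f8 at −0.34 and −0.49. The E2F family as a whole was therefore mixed, with 1 member past 2-fold on each side. The probes of the members past 2-fold outside the INK4 family begin as follows, in mm9:
E2f2, chr4:135750562-135750621: aaccttttgacatatgtgacctcgtcgtct
E2f5, chr3:14605676-14605735: ggagtttgtgatctgtttgatgttcagata
Cdk6, chr5:3522106-3522165: tcctatctttaagtgtatgttgtcagtgta
Ccng2, chr5:93705131-93705190: cattgatgacttactttttattagtaagtc

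Wee1, the kinase that restrains Cdk1, and the Cdc25 phosphatases that release it were all below 0 and within 2-fold. Cdc25a was at −0.29, Cdc25b at −0.64, Cdc25c at −0.83 and Wee1 at −0.58. Opposing enzymes of this switch were on the same side.

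The genes around Cdkn2a were examined to see whether they shared its difference. By the probe positions in mm9, 34 other genes had a probe within 1 Mb, 20 were well above background on 1 or both arrays and 18 were measured on both. Their median difference was −0.39. Mtap, a methionine salvage enzyme whose probe lay 94.1 kb from those of Cdkn2a, had a level of 3.75 on array A and 2.61 on array B, a difference of 1.14. It was the 1 neighbour higher by 2-fold or more on array A. Cdkn2b, 31.7 kb away on the other side, was at 0.35. Tgif2-ps1, 56.7 kb away and between Cdkn2a and Mtap, was dim on both arrays, with levels of −5.58 on array A and −4.68 on array B. It reached well above background only on array B, where it was at least 1.86-fold brighter.

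Farther out, Klhl9, an adaptor of a ubiquitin ligase, was at 0.12 and Focad at −0.68. Hacd4, an enzyme of very long chain fatty acid synthesis, was at −2.05 and was the 1 neighbour higher by 2-fold or more on array B. Zfp352 was at −0.78. Most of the others belong to the type I interferon cluster, where Ifna1, Ifna2, Ifna5, Ifna12, Ifna14, Ifnab, Gm13271, Gm13275, Gm13277, LOC625164, LOC641172 and ENSMUST00000107145 lay between −0.65 and −0.04. Genes of this cluster are close in sequence, and their probes may read one another. Ifna13 reached well above background only on array B, at least 1.53-fold brighter there, and was also dim on both arrays (levels of −5.88 on array A and −5.16 on array B).

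**Figure D4:**
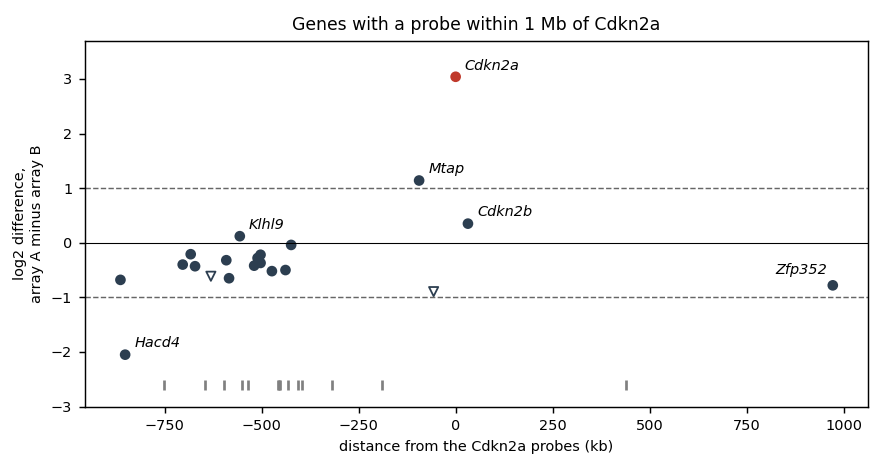
Log2 difference (array A minus array B) for the genes with a probe within 1 Mb of Cdkn2a, by distance in kb from its probes; filled circles were measured on both arrays, open triangles are bounds for genes above background on array B only, ticks mark genes not above background, and dashed lines mark 2-fold. Only Cdkn2a (3.04) and Mtap (1.14) lie above the upper line.

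Promoter sequence was looked up for the genes, since E2F factors bind promoters of several cell cycle genes. RefSeq (GRCm38.p6) gave 33 promoters for 27 of the 38 genes. The 250 bases before the start were searched on both strands for the E2F letters TTTCCCGC, TTTGGCGC, TTTCGCGC or TTTGCCGC and for the cell cycle homology region letters TTTGAA or TTCGAA; the E2F and homology region letters do not contain each other. E2F letters were in 6 of 33 promoters (18.2%), those of Cdc25a, Cdk2, Cdkn2a, E2f3, E2f7 and Rbl1, against 611 of 32851 promoters (1.86%). The homology region letters were in 8 of 33 (24.2%), against 5633 of 32851 (17.1%). The median difference was 0.14 over the 6 genes with E2F letters, 3 of which were above 0, and −0.64 over the 21 without, 4 of which were above 0. A match is a description of letters and not a bound site.

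Cdkn2a has separate promoters for its products, and they are shown with that of Cdkn2b because these adjacent genes had unlike differences. All run on the minus strand (GRCm38.p6), and E2F letters are in capitals. The upstream one, that of Arf, holds 40 CpG dinucleotides and 78.4% G and C. The downstream one, that of p16Ink4a, holds 7 and 60%, and that of Cdkn2b 12 and 53.6%, against a median of 6 and 52.4% over all promoters:
Cdkn2a upstream, chr4:89294620-89294869: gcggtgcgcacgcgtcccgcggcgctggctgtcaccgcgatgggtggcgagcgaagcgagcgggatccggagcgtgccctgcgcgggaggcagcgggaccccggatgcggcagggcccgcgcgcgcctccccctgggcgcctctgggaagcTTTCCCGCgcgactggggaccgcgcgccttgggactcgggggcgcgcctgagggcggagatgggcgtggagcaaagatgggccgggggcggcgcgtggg
Cdkn2a downstream, chr4:89282193-89282442: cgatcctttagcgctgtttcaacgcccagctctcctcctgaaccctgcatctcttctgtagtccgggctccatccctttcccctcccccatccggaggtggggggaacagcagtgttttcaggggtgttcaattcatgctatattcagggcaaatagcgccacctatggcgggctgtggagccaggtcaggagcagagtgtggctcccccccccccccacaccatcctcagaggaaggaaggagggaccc
Cdkn2b, chr4:89311033-89311282: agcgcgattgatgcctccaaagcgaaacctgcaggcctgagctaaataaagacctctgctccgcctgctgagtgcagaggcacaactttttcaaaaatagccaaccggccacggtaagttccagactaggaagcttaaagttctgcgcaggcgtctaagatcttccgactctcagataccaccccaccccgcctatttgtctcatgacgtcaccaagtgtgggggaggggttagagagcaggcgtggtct
In this window, only the upstream promoter of Cdkn2a among these 3 has the E2F letters. Use of one promoter or the other was not measured by the probes.

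The genes that work with these members were described from 7 lists. These were written with earlier results of these data known, so their counts are descriptions and not a test. Among 15 measured partners of the Arf to p53 route, all 15 were above 0 (14 with 1 of the scalings), against 7211 of all 14815 measured genes. Their median was 0.62, and 4 (26.7%) were higher by 2-fold or more on array A, against 3.85% of all measured genes. These were Btg2, an antiproliferative p53 target, at 2.46, Rrm2b, a ribonucleotide reductase subunit, at 1.49, Gadd45a, a stress-induced growth arrest gene, at 1.06, and Mdm2, the p53 ubiquitin ligase that Arf binds, at 1.02. The count was 2 with quantile scaling and 7 with median scaling. None was higher by 2-fold or more on array B, and Trp53 itself had a level of 0.87 on array A and −0.09 on array B, a difference of 0.96.

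Known regulators of Cdkn2a were split. Of 21 measured out of 27, 4 were higher by 2-fold or more on array A (19%, against 3.85% of all measured genes). They were Fos (1.92) and Ets2 (1.46), which encode transcription factors, Kdm6b (1.19), an H3K27 demethylase, and Id2 (1.16), an inhibitor of helix-loop-helix factors. Another 4 were higher by 2-fold or more on array B (19%, against 7.3% of all measured genes). They were the Polycomb proteins Cbx2 (−1.62) and Cbx8 (−1.29), the repressor Zbtb7a (−1.04) and the H3K36 demethylase Kdm2b (−1.01). On array B this count dropped to 1 with median scaling or normexp. The median of the list was 0.31. Polycomb genes did not all lean to array B. Eed (0.88), Rnf2 (0.67), Suz12 (0.54), Bmi1 (0.47) and Ring1 (0.28) were above 0 and Ezh2 (−0.21) below, all within 2-fold. Eed was 1.17 with median scaling.

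Genes that E2F is known to drive in S phase leaned to array B, with a median of −0.40 and 23 of 28 below 0, against 51.3% of all measured genes. Higher by 2-fold or more on array B were Uhrf1, which maintains DNA methylation (−1.44), Gins2, a subunit of the replicative helicase (−1.08), and Tk1, thymidine kinase (−1.0), and none was so on array A. These 3 are 10.7% of the list, near the 7.3% of all measured genes. With median scaling the median was −0.11, 17 of 28 were below 0 and 1 gene was past 2-fold, where the median of all genes was 0.27. The G2/M genes had a median of −0.14 and 0 of 19 past 2-fold. The genes of the SCF and APC/C ubiquitin ligases had a median of −0.19 and 0 of 19 past 2-fold. Of all measured genes 11.2% were past 2-fold either way, and in lists this short a count of 0 is not read as a result.

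The E2F partners and the DREAM and MuvB complexes, which repress or activate cell cycle promoters, had a median of −0.07. Foxm1, the activator of mitotic genes, was 1 of 13 past 2-fold, at −1.27, and was −0.98 with median scaling. This is 7.69% of the list, against 11.2% of all measured genes past 2-fold either way. Among 28 measured of 34 other cyclins, CDKs and cell cycle kinases, the median was 0.07. Cdk17 (1.30), a kinase of the PCTAIRE group, was higher by 2-fold or more on array A, and Chek2 (−1.45), the DNA damage checkpoint kinase, and Cdk5 (−1.37), best known from neurons, were higher by 2-fold or more on array B. The share higher on array A was 3.57%, against 3.85% of all measured genes, and on array B 7.14%, against 7.3%. Cdk1, the mitotic kinase, had a level of −2.31 on array A and −1.69 on array B, a difference of −0.61.

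**Figure D5:**
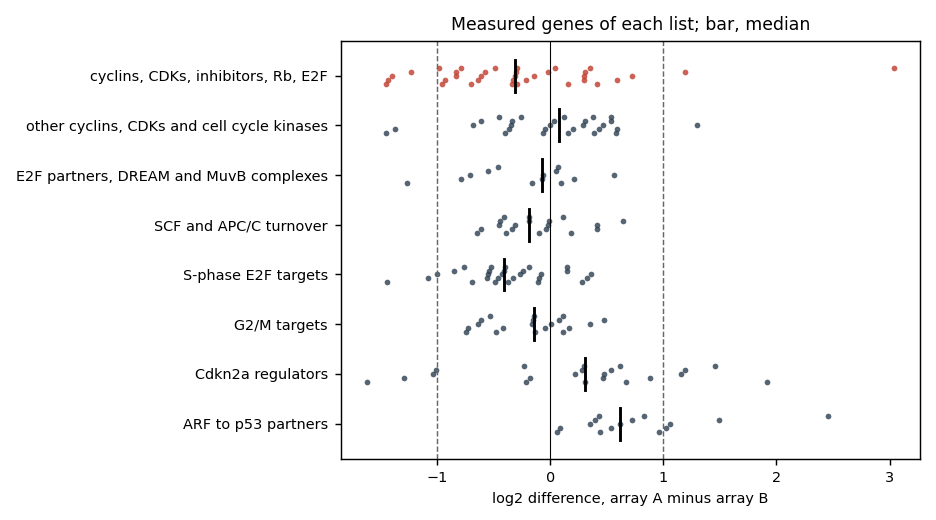
Log2 difference (array A minus array B) for each measured gene (points) in the cell cycle set (top, red) and 7 related lists, with the median of each as a bar and 2-fold as dashed lines. The Arf to p53 partners lie at 0.06 and above with a median of 0.62, and the S-phase E2F targets have a median of −0.40.

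Markers of other blood cell types moved between the same arrays. All 4 neutrophil markers were brighter on array B, and S100a9 had a level of −1.76 on array A and 4.14 on array B, a difference of −5.90, with Ngp at −4.07, Mpo at −2.84, and S100a8 well above background on that array alone. Of 4 mast cell markers, Cpa3 was at −5.44, Fcer1a was well above background only on array B, and Kit and Mcpt8 were so on neither array. Of the markers of red cell precursors, Hba-a1 was at −3.20 and Klf1 at −2.31. Of 5 macrophage markers 3 were measured, between −1.26 and 0.90, and of 4 T cell markers 3 were measured, between 0.03 and 1.27. Their part in the differences of the cell cycle genes was not tested.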

How the data were processed

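The scanner files that the authors deposited hold spot intensity from Agilent Feature Extraction 9.5.1.1, background-subtracted. The authors' table holds log2 values from GeneSpring, with a floor of 1.0 and division by the 75th percentile of the array. The same steps were run here on the processed intensity of the 43020 non-control spots (44397 features). Spots of a probe were averaged on the log2 scale, and a gene is the mean over its probes well above background on both arrays. Gene names of probes came from RefSeq (GRCm38.p6) (26055 by accession, 3195 by symbol, 930 by an older symbol, 9249 kept). Probe coordinates are those of the scanner output in mm9. A gene well above background on 1 array only is written as at least N-fold, set against its own signal on the other array or that array's dimmest signal called well above background (27.1 on array A, 22.9 on array B), whichever was higher. Genes named are all 38 members, up to 4 genes at least 2-fold apart per direction of each list, the genes above background within 1 Mb of Cdkn2a, and Olr1. Some marker genes are not reported here. Trp53, Cdk1 and the Polycomb genes within 2-fold were named after their values were seen. The members, lists and alternatives were chosen with earlier results of these data known. Simulated arrays with 200 genes changed 4-fold were used to test these steps, and 185 of the 185 that were measured passed 2-fold with the right sign. Among 15498 unchanged genes 0 did. The simulation added only the spread between spots, 0.06 on array A and 0.05 on array B, at every brightness. It held no spread between cultures, so it checks the arithmetic and gives no error rate for the 2-fold calls. Python 3.11.15, numpy 2.4.6, pandas 2.3.3, matplotlib 3.10.9, R 4.3.3 and limma 3.58.1 (normexp and quantile scaling) were used.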

Additional observations from a re-analysis of the deposited data

How the results depend on the processing

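With 1 array per line, no setting has a replicate check. No paired analysis was possible because each line has 1 array. The median of the 35 measured members was −0.02 with median scaling and −0.40 when the 75th percentile was taken over probes bright on both arrays (well above background). Cdkn2a was 3.33 with median scaling, 2.96 with the scaling on probes bright on both arrays, 2.70 with normexp and 2.83 at its brightest probe. The count at least 2-fold higher on array A, 2, was 1 with normexp, 4 at 1.5-fold and 1 at 3-fold. The count on array B, 4, was 7 with the scaling on probes bright on both arrays, 13 at 1.5-fold and 0 at 3-fold. Of the calls past 2-fold, 33.3% were on array A, against 50% with median scaling, 22.2% with the scaling on probes bright on both arrays, 20% with normexp and 42.9% with the brightest probe. Of 408 values of single members other than Cdkn2a under the alternatives, 314 moved by no more than the spread between spots and 94 moved by more. The floor, its order, outlier spots, the median over probes and the authors' table left both counts at 2 and 4, but most could not change them. Floors of 1.0 and 5.0 lie below the dimmest signals well above background, 27.1 on array A and 22.9 on array B. No spot of the members was marked as an outlier, and the authors' table comes from the same steps on the same spots. The 314 include values that such settings could not move. The number of arrays limits every value.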
